A study of Canis lupus familiaris with 6 samples.

Results

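Ribosome biogenesis and nucleolar genes encode the proteins that transcribe, modify, cut and fold ribosomal RNA and assemble it into ribosomal subunits. The list held 50 genes, fixed by name but chosen with earlier results of these data known. On the array 43 of them had a probe set whose only annotated symbol was the gene, of 15115 genes so represented in all. Where a gene had several such probe sets the brightest stood for it. The genes POLR1B, RRP9, IMP4, BOP1, GNL3, PPAN and LYAR had none under this rule. Expression was measured in 6 primary cell lines from canine osteosarcoma, a malignant bone tumour. UWKOS1, UWKOS3 and UWKOS7 formed tumours when transplanted into mice and are called tumorigenic (n = 3), whereas no tumour grew from UWKOS2, UWKOS6 or UWKOS8, the non-tumorigenic group (n = 3). No genotype, treatment or reference line separates the groups in the labels. RNA was taken from the cultured lines and not from tumours grown in mice, and every line was grown in medium with 10% cosmic calf serum to 70 to 80% confluency. Each line was arrayed on its own, and the labels do not say whether the lines came from different dogs, so that the p-values cover only the spread among the lines as sampled.

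In the nucleolus, RNA polymerase I copies the ribosomal DNA into a long precursor. Small nucleolar ribonucleoproteins of the box C/D class then methylate it, the small subunit processome folds and cuts the part that becomes the small subunit, and a separate chain of factors matures the large subunit. In growing and tumour cells the pathway is known to be driven by MYC and by nutrient signalling, and enlarged nucleoli are a classical feature of malignant cells. The comparison addresses whether cells of lines that can grow as tumours in mice hold more or less of the messenger RNA for this machinery.

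All values are log2 values as deposited, and each difference is the mean of the tumorigenic lines minus that of the non-tumorigenic lines, so that a difference of 1 is a doubling. The medians of the 6 arrays lay between 6.04 and 6.06. Arrays of the tumorigenic lines correlated at 0.959 to 0.966 with each other, arrays of the non-tumorigenic lines at 0.975 to 0.984, and arrays across the groups at 0.927 to 0.961. The ratio of the 3′ to the 5′ control probe set of GAPDH, which grows as RNA degrades, was 0.40 to 0.61 in the tumorigenic lines and 0.60 to 0.90 in the non-tumorigenic lines (log2), highest in UWKOS8 and UWKOS6. Other such ratios overlapped more between the tumorigenic and non-tumorigenic lines. They were 0.15 to 0.44 and 0.10 to 1.35 for actin, and 0.86 to 1.07 and 0.95 to 1.98 for a further GAPDH pair. For EF1A they were 7.90 to 8.55 and 8.02 to 9.09. The bone matrix genes COL1A1, COL1A2 and SPARC were bright in every line, while RUNX2, ALPL and IBSP lay near or below the dim-probe limit described next. Markers of other cells did not all stay level. Of the 6 tested of 7 smooth muscle markers 2 were lower past the threshold and 0 higher, with list means of 7.17 to 10.07 in the tumorigenic lines and 10.61 to 10.98 in the non-tumorigenic lines. Of 9 tested fibroblast markers 0 passed in limma and 4 were lower at an unadjusted p under 0.05, with list means of 9.30 to 10.52 in the tumorigenic lines and 11.09 to 11.35 in the non-tumorigenic lines. In limma 0 genes passed among the tested bone markers (6), macrophage and osteoclast markers (4), endothelial markers (2) and lymphocyte markers (1). At an unadjusted p under 0.05, 2 bone and 2 macrophage and osteoclast markers were lower in the tumorigenic lines. At that cut 1 endothelial marker was higher and 0 lymphocyte markers differed. The median difference of the 6 tested bone markers was -0.58. List means of the tumorigenic and non-tumorigenic lines were 5.74 to 6.24 and 6.50 to 6.54 for macrophages and osteoclasts, 5.81 to 5.97 and 5.55 to 5.69 for endothelium, and 4.41 to 4.78 and 4.55 to 4.71 for lymphocytes. For epithelium, where no marker was bright enough to be tested, they were 4.07 to 6.41 and 3.93 to 4.13. The bone list averaged 7.71 to 8.01 in the tumorigenic lines and 7.67 to 7.97 in the non-tumorigenic lines, and the leukocyte marker PTPRC lay between 4.86 and 5.17 in the tumorigenic lines and between 4.99 and 5.06 in the non-tumorigenic lines. The part of these markers in the results below was not tested. In such bulk RNA, more cells of a type and more RNA per cell cannot be told apart.

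The machinery was higher in the tumorigenic lines almost throughout. Of the 43 measured genes, 32 rose, 0 fell and 11 did not pass (limma, adjusted p under 0.05 over 21462 probe sets). Over all 9145 tested genes, 7.30% rose and 4.52% fell, and among the 3009 genes as bright as the middle of the list 8.77% rose. Because the list was chosen with earlier results known, setting it beside these shares is a description and not a test. At an unadjusted p under 0.05, 40 of the 43 were higher and 0 lower. The share of all tested genes at this unadjusted cut was not counted, for this or any other fit. Counts at that cut therefore have no array-wide rate beside them. The difference was above 0 for 42 of the 43, against 52.6% of all tested genes. The groups did not overlap, with every tumorigenic line above every non-tumorigenic line, for 40 of the 43 genes, against 21.7% of all tested genes. The median difference of the list was 1.10, a 2.15-fold higher level, against 0.03 for all tested genes. All 43 lay above the dim-probe limit, a mean of 6.07 over the 6 lines, but NOC4L did so through the tumorigenic lines, since its non-tumorigenic mean was below it.

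**Figure D1:**
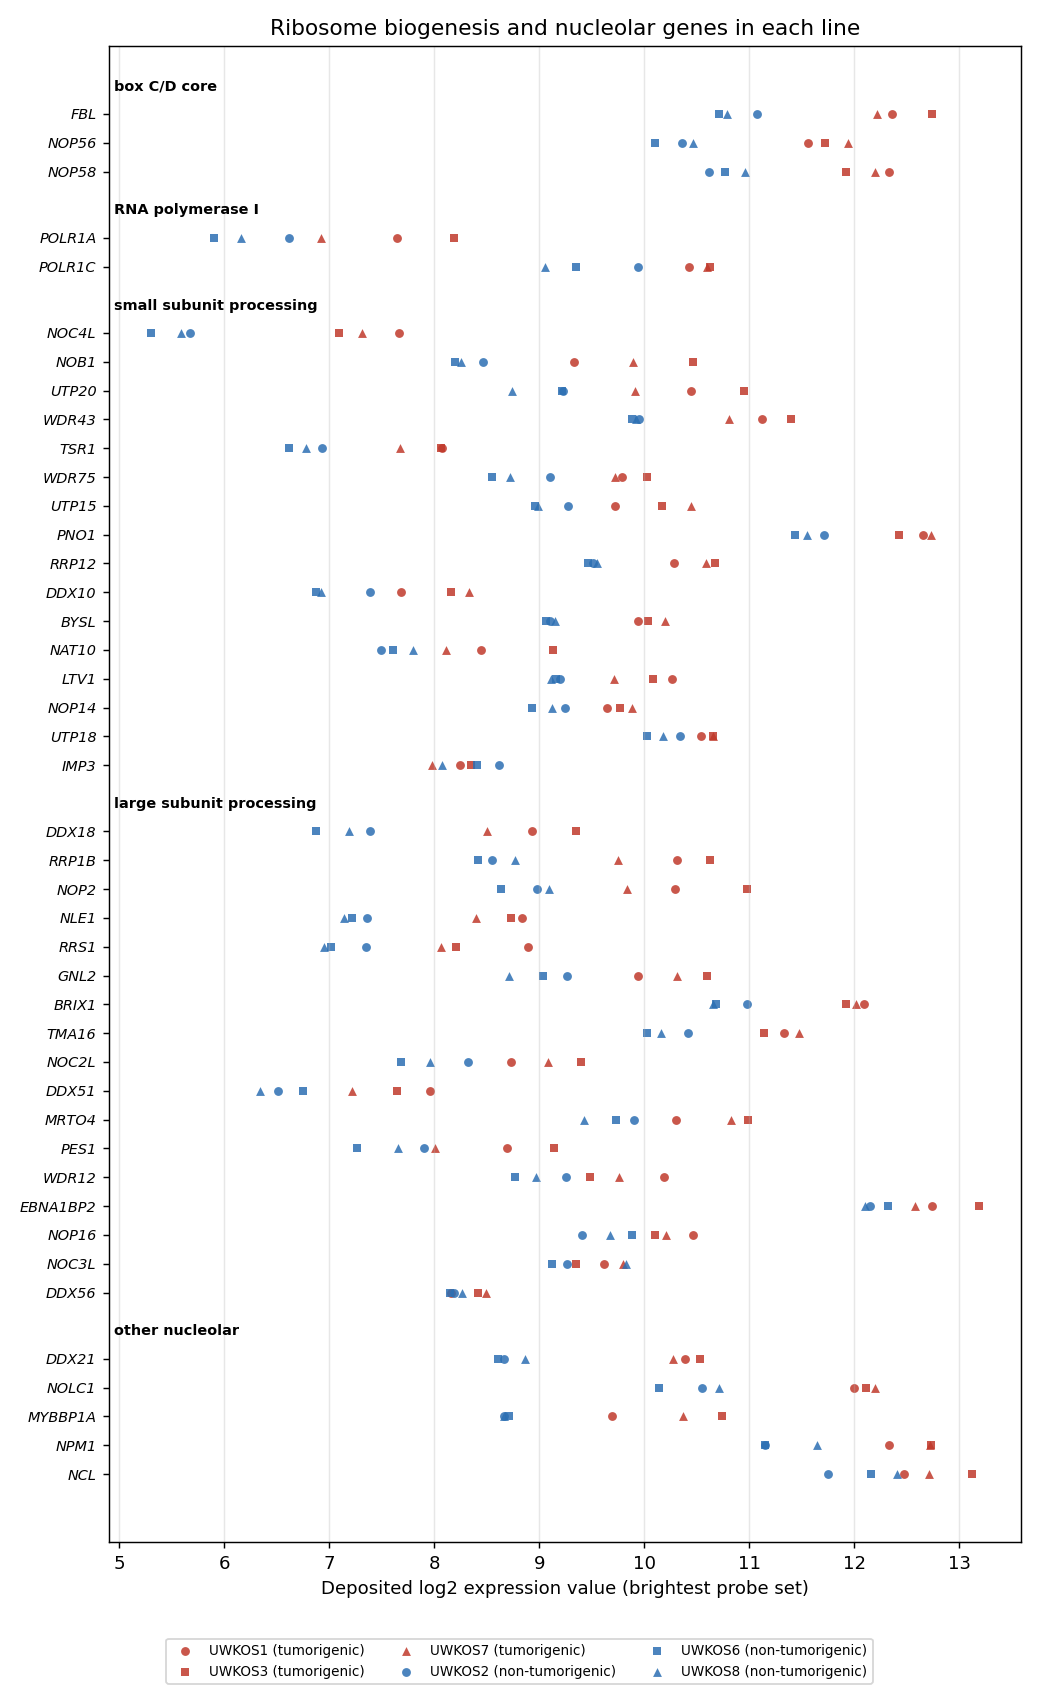
Deposited log2 value of the brightest probe set of each of the 43 measured genes (rows, grouped by role and ordered by difference) in the 6 lines (points, red for tumorigenic, blue for non-tumorigenic). In 40 rows all red points lie to the right of all blue points, and IMP3, NOC3L and DDX56 are the rows where they mix.

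The number of calls depended on which lines were in the fit, more than the size of the differences did. Without UWKOS6 0 of the 43 passed in limma, where 0.0656% of all tested genes rose, and 37 were higher at an unadjusted p under 0.05 and the median difference was 1.05. The count was 6 without UWKOS8, where 1.33% of all tested genes rose, 12 without UWKOS3 (1.57%), 18 without UWKOS2 (3.47%), 22 without UWKOS1 (3.09%) and 29 without UWKOS7 (8.91%). Without both UWKOS6 and UWKOS8 it was 0, where 0.0219% of all tested genes rose and 24 of the 43 were higher at an unadjusted p under 0.05. When the GAPDH end ratio entered the fit as a covariate 0 passed, where 0.0109% of all tested genes rose, and the median difference was 0.90, with 20 genes higher and 1 lower at an unadjusted p under 0.05.

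**Figure D2:**
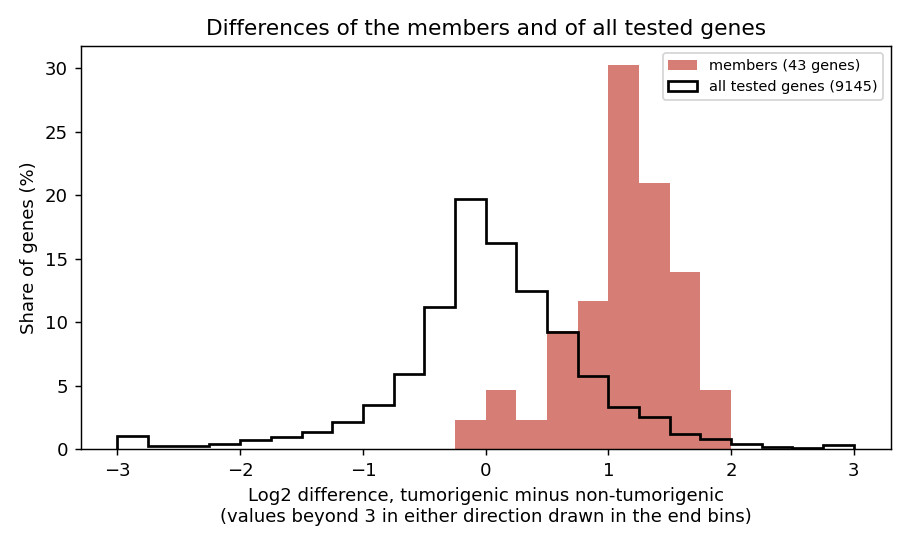
Histogram of the log2 difference, tumorigenic minus non-tumorigenic, as the share of genes in each bin, for the 43 measured genes (filled) and all 9145 tested genes (outline). The list centres on 1.10 and all tested genes on 0.03.

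The box C/D core consists of fibrillarin (FBL), the enzyme that methylates ribose in ribosomal RNA, and the paired scaffold proteins NOP56 and NOP58. All 3 genes rose. FBL had values of 12.36, 12.74 and 12.21 in UWKOS1, UWKOS3 and UWKOS7, against 11.07, 10.71 and 10.79 in UWKOS2, UWKOS6 and UWKOS8. The lowest tumorigenic line thus lay more than 1 log2 unit above the highest non-tumorigenic line, and the difference was 1.58 with an SE of 0.21 (limma adjusted p = 0.0163). NOP56 stood at 11.56, 11.72 and 11.94 in the tumorigenic lines and at 10.36, 10.10 and 10.47 in the non-tumorigenic ones, a 2.70-fold rise with a 95% interval of 1.99 to 3.67. For NOP58 the tumorigenic values were 12.33, 11.92 and 12.20 and the non-tumorigenic values 10.61, 10.77 and 10.96, a difference of 1.37. Neither group overlapped the other in any of these genes, and a different tumorigenic line was highest in each, while UWKOS8 was the highest non-tumorigenic line for NOP56 and NOP58 and UWKOS2 for FBL. All 3 probe sets of NOP58 rose, by 1.35 to 1.43, and both of NOP56 rose. NOP56 and NOP58 also passed without any 1 line other than UWKOS6.

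RNA polymerase I was represented by its largest subunit, POLR1A, and by POLR1C, a subunit shared with RNA polymerase III. POLR1C rose to 10.43, 10.63 and 10.60 in UWKOS1, UWKOS3 and UWKOS7, against 9.94, 9.35 and 9.05 in UWKOS2, UWKOS6 and UWKOS8 (difference 1.10, SE 0.25, limma adjusted p = 0.0409). POLR1A was dimmer and more variable, with 7.64, 8.18 and 6.92 in the tumorigenic lines and 6.62, 5.90 and 6.16 in the non-tumorigenic lines. Its groups did not overlap, and its difference of 1.36 was larger than that of POLR1C, but with an SE of 0.36 it did not pass (limma adjusted p = 0.0564).

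Small subunit processing was covered by 16 measured genes, of which 13 rose and 0 fell, and the median difference was 1.02. The class spans the early processome, which includes NOC4L, WDR43, WDR75, UTP15, UTP18, UTP20, NOP14, IMP3 and the helicase DDX10, and the later pre-40S particle, which includes BYSL, TSR1, PNO1, NOB1, LTV1 and the export factor RRP12. Genes of both stages rose.

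NOC4L, a protein of the early processome, had values of 7.66, 7.09 and 7.31 in UWKOS1, UWKOS3 and UWKOS7 and of 5.67, 5.30 and 5.58 in UWKOS2, UWKOS6 and UWKOS8. The groups did not overlap. The measured difference of 1.83 is uncertain in size and is not ranked against other genes, since the non-tumorigenic values lay below the dim-probe limit and are not known to lie above background. WDR43, part of the complex that links processing to ribosomal DNA transcription, had 11.12, 11.40 and 10.80 in the tumorigenic lines against 9.95, 9.88 and 9.92 in the non-tumorigenic lines. The non-tumorigenic lines spanned 0.07 and the tumorigenic lines 0.59, and the rise was 1.19 on the brightest probe set and up to 1.40 on its other probe sets.

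Bystin (BYSL), needed for assembly of the small subunit, stood at 9.94, 10.04 and 10.20 in the tumorigenic lines and at 9.10, 9.06 and 9.15 in the non-tumorigenic lines, which gives 0.96 with an SE of 0.15. TSR1, a factor of the late particle, had 8.08, 8.06 and 7.68 in the tumorigenic lines against 6.93, 6.62 and 6.77 in the non-tumorigenic lines, a 2.24-fold rise. PNO1 was among the brightest genes of the class, with 12.65, 12.42 and 12.73 in the tumorigenic lines and 11.71, 11.43 and 11.54 in the non-tumorigenic lines (difference 1.04, limma adjusted p = 0.0215). Its partner NOB1, the nuclease that makes the last cut of the small subunit RNA, rose by 1.59. The other genes of the class that rose were UTP20 (1.37), WDR75 (1.06), UTP15 (1.04), RRP12 (1.01), DDX10 (1.00), LTV1 (0.86) and NOP14 (0.67).

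The 3 genes of the class that did not pass differed among themselves. NAT10, which acetylates small subunit RNA, had 8.45, 9.13 and 8.11 in the tumorigenic lines and 7.49, 7.61 and 7.79 in the non-tumorigenic lines, without overlap (difference 0.93, limma adjusted p = 0.0777). Its probe sets disagreed: another rose by 1.20 (limma adjusted p = 0.0409), and a dimmer tested one differed by -0.15. UTP18 differed by 0.43 with a 95% interval of 0.05 to 0.81. IMP3, a protein bound to the U3 small nucleolar RNA, was the only 1 of the 43 with a difference below 0. It had 8.24, 8.35 and 7.98 in the tumorigenic lines and 8.62, 8.40 and 8.07 in the non-tumorigenic lines. The groups overlapped, with UWKOS7 lowest and UWKOS2 highest of the 6 lines, and the difference of -0.17 had a 95% interval of -0.67 to 0.32. IMP3 was singled out after its values were seen.

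**Figure D3:**
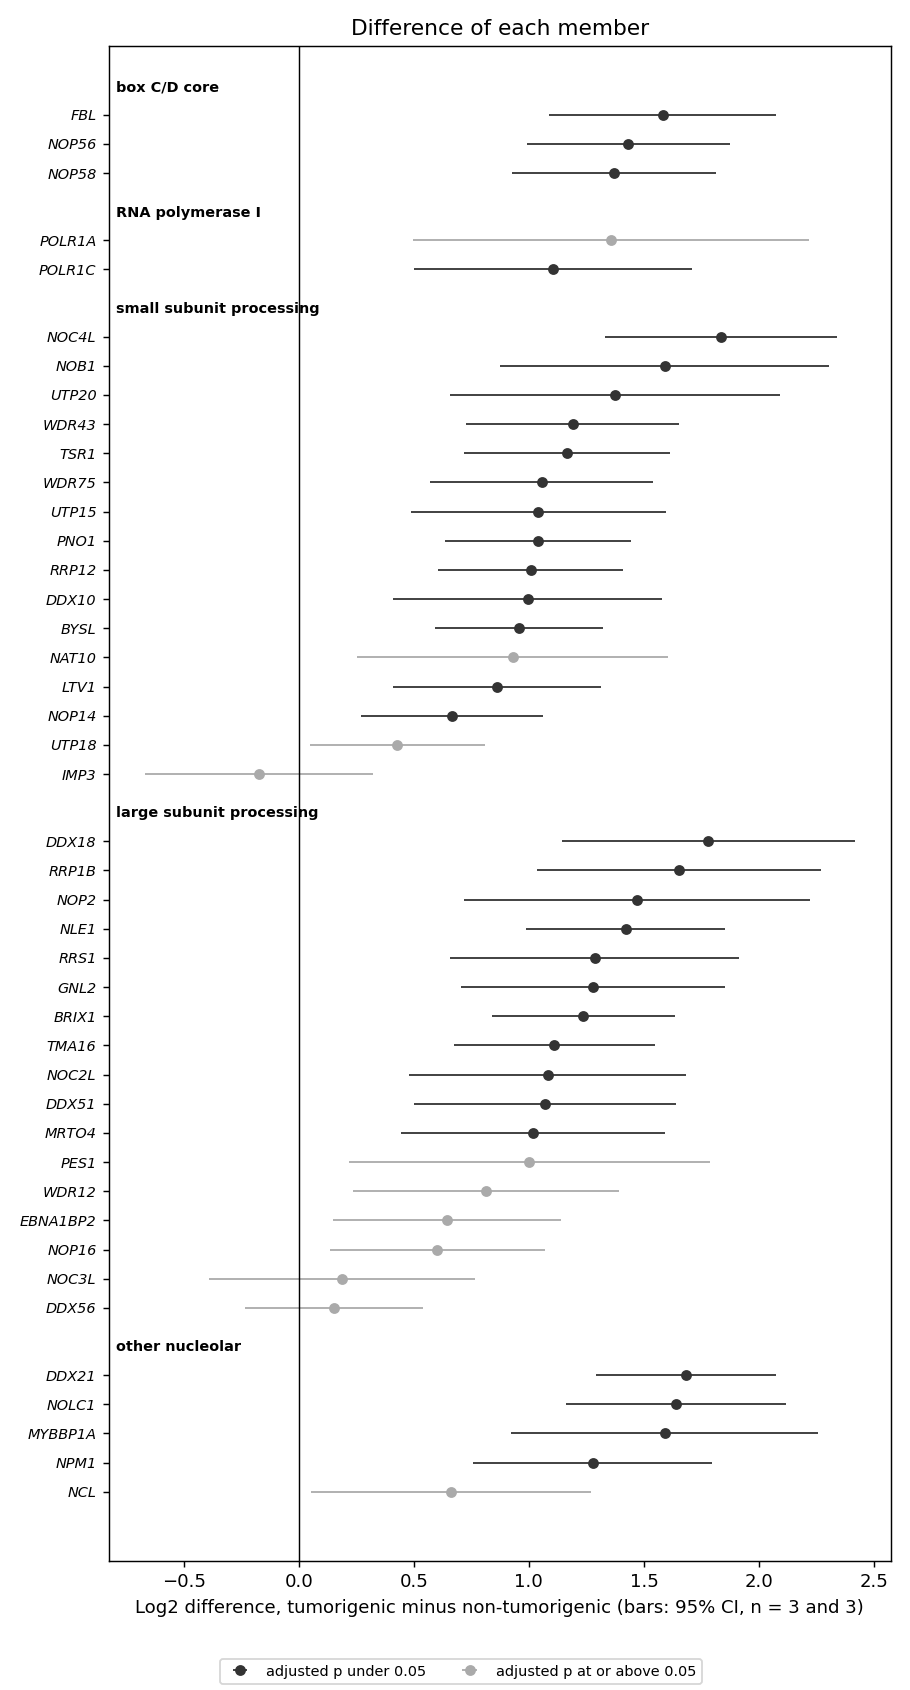
Log2 difference, tumorigenic minus non-tumorigenic, of each of the 43 measured genes (rows, grouped by role) with its 95% confidence interval from limma (n = 3 lines in each group). Black marks the 32 genes past the threshold and grey the 11 that did not pass, and the interval lies above 0 for 40 genes.

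Large subunit processing was covered by 17 measured genes, of which 11 rose and 0 fell, and the median difference was 1.08. NLE1, an assembly factor released from the particle by the ATPase midasin, had values of 8.84, 8.73 and 8.40 in UWKOS1, UWKOS3 and UWKOS7 and of 7.35, 7.21 and 7.14 in UWKOS2, UWKOS6 and UWKOS8 (difference 1.42, SE 0.18, limma adjusted p = 0.0152). BRIX1 was tight in both groups, at 12.09, 11.92 and 12.02 in the tumorigenic lines and 10.98, 10.69 and 10.65 in the non-tumorigenic lines, a 2.36-fold rise. The RNA helicase DDX18 had 8.93, 9.35 and 8.50 in the tumorigenic lines against 7.39, 6.87 and 7.18 in the non-tumorigenic lines, and its difference of 1.78 was the largest of the class. No value of either group reached into the other in these 3 genes.

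RRP1B, a nucleolar protein of the pre-large-subunit particle, stood at 10.32, 10.62 and 9.75 in the tumorigenic lines and at 8.55, 8.42 and 8.77 in the non-tumorigenic lines, and differed by 1.65 with a 95% interval of 1.03 to 2.27. TMA16, known as a large subunit factor in yeast, had 11.33, 11.14 and 11.47 in the tumorigenic lines against 10.42, 10.03 and 10.16 in the non-tumorigenic lines (difference 1.11, SE 0.18). UWKOS7 was the lowest tumorigenic line for RRP1B and the highest for TMA16. The other genes of the class that rose were the RNA methyltransferase NOP2 (1.47), RRS1 (1.29), the GTPase GNL2 (1.28), NOC2L (1.08), the helicase DDX51 (1.07) and MRTO4 (1.02). NOC4L and DDX51 are next to each other in the dog reference annotation. They are the only such pair among these 50 genes and the other ribosome biogenesis genes described below. NOC4L passed the dim-probe limit only through the tumorigenic lines, so nothing is drawn from the pair.

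The 6 genes of the class that did not pass were PES1 (1.00), WDR12 (0.81), EBNA1BP2 (0.64), NOP16 (0.60), NOC3L (0.19) and DDX56 (0.15). PES1 and WDR12 form a complex with BOP1, which had no probe set. In the first 4 of these genes every tumorigenic line was above every non-tumorigenic line on the brightest probe set, with limma adjusted p between 0.074 and 0.0917. A dimmer tested probe set of PES1 differed by -0.03 (limma adjusted p = 0.908), and the groups overlapped on it. Of these 6 genes, 3 have intervals on the brightest probe set that do not hold the median difference of the list. They are DDX56, -0.23 to 0.54, NOC3L, -0.39 to 0.77, and NOP16, 0.13 to 1.07. For NOC3L this depends on the probe set, since its other tested ones have intervals of -0.34 to 1.16 and 0.07 to 1.19, which hold it. The other tested probe set of DDX56 has an interval of -0.44 to 0.41. NOP16 rose on its dimmer probe set, by 1.38 (limma adjusted p = 0.0182), with an interval of 0.90 to 1.85, which holds that median.

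The remaining class holds abundant or regulatory nucleolar proteins, of which 4 of 5 measured genes rose and 0 fell, with a median difference of 1.59. DDX21, an RNA helicase that acts in ribosomal RNA transcription and processing, had the smallest p of the list. Its values were 10.38, 10.53 and 10.27 in UWKOS1, UWKOS3 and UWKOS7, against 8.66, 8.60 and 8.86 in UWKOS2, UWKOS6 and UWKOS8, a difference of 1.68 with an SE of 0.16 (limma adjusted p = 0.00958). Its second probe set rose by 1.95. NOLC1, a chaperone of small nucleolar ribonucleoproteins, stood at 12.00, 12.11 and 12.20 in the tumorigenic lines and at 10.55, 10.13 and 10.71 in the non-tumorigenic lines, a 3.12-fold rise with a 95% interval of 2.24 to 4.33.

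MYBBP1A, a nucleolar binding partner of several transcription factors, had 9.70, 10.74 and 10.36 in the tumorigenic lines and 8.66, 8.71 and 8.66 in the non-tumorigenic lines. The tumorigenic lines spanned 1.05 and the non-tumorigenic lines 0.05, and the difference was 1.59 (limma adjusted p = 0.0245). Nucleophosmin (NPM1) had 12.33, 12.73 and 12.72 in the tumorigenic lines against 11.15, 11.15 and 11.65 in the non-tumorigenic lines, a rise of 1.28. Probe sets annotated to NPM1 together with near-identical loci were left out, and signal of such copies cannot be separated with certainty on its own probe set either. Nucleolin (NCL) was the brightest of the class, at 12.47, 13.12 and 12.71 in the tumorigenic lines and 11.75, 12.16 and 12.41 in the non-tumorigenic lines, and its difference of 0.66 did not pass (limma adjusted p = 0.131). Its groups came within 0.06 of each other, while its dimmer probe set rose by 1.43 (limma adjusted p = 0.0247).

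Side by side, the medians were 1.43 for the box C/D core, 1.23 for RNA polymerase I, 1.02 for small subunit processing, 1.08 for large subunit processing and 1.59 for the other nucleolar genes. The classes overlap, with differences of 0.67 to 1.78 among the genes past the threshold other than NOC4L, and no class was tested against another. Across the 89 probe sets of the list, 79 lay above the dim-probe limit, 54 of them rose and 0 fell. Of all 21462 tested probe sets, 7.28% rose and 4.74% fell. Of the 28 genes with several tested probe sets, 14 rose on every one and 25 were positive on every one. For NAT10, NCL and NOP16 the brightest probe set did not pass but another did, so that 35 genes rose on at least 1 probe set. The reverse held for POLR1C, RRP1B, MRTO4, LTV1, RRP12, UTP15 and DDX10. There the brightest probe set passed and another tested one did not, with differences of 0.40 to 0.85 on the latter.

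Within the groups the lines differed in order. UWKOS3 was the highest tumorigenic line for 22 of the 43 genes, against 33.3% of all tested genes. UWKOS6 was the lowest non-tumorigenic line for 27 of the 43, against 32.8% of all tested genes, and UWKOS2 the highest for 26, against 39.1%. The 43 genes averaged 10.06, 10.26 and 10.01 in UWKOS1, UWKOS3 and UWKOS7 and 9.11, 8.90 and 9.00 in UWKOS2, UWKOS6 and UWKOS8, with no overlap between the groups. The genes that spanned at least 1 log2 unit over the tumorigenic lines were POLR1A, NOP2, PES1, NOB1, MYBBP1A, UTP20 and NAT10. In all 7 UWKOS3 was the highest, while UWKOS7 was the lowest in 5 and UWKOS1 in the other 2. The range over the tumorigenic lines was wider than that over the non-tumorigenic lines for 30 of the 43 genes. The share of all tested genes was not counted for these ranges. Over whole arrays the tumorigenic lines also correlated less with each other, at 0.959 to 0.966, against 0.975 to 0.984 for the non-tumorigenic lines.

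**Figure D4:**
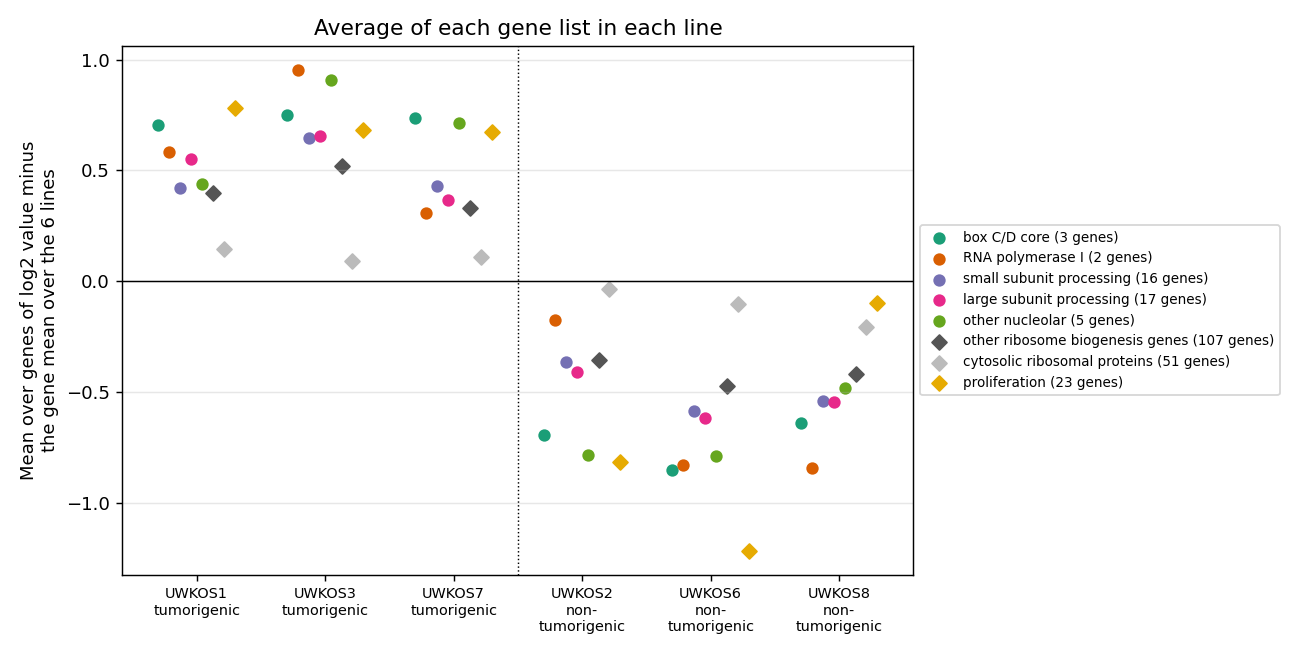
Mean over the genes of each list of the log2 value minus the gene's own mean over the 6 lines, for each line (tumorigenic lines to the left of the dotted line, non-tumorigenic lines to the right). Circles are the role classes of the list and diamonds the other lists, and for proliferation UWKOS8 lies at -0.10, above UWKOS2 at -0.82 and UWKOS6 at -1.22.

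The rest of the pathway showed the same direction, on a list that was also chosen with earlier results of these data known. Of 116 further genes for ribosome biogenesis, 107 had a probe set and 103 were tested, and in limma 43 of these rose and 0 fell (79 higher and 0 lower at an unadjusted p under 0.05). Their median difference was 0.78, and 104 of the 107 differed upward. The count that rose was 0 without UWKOS6 (0.0656% of all tested genes), 5 without UWKOS8 (1.33%), 13 without UWKOS3 (1.57%), 21 without UWKOS1 (3.09%), 21 without UWKOS2 (3.47%) and 48 without UWKOS7 (8.91%). The 6 with the smallest p were POLR1G, an RNA polymerase I subunit (1.61), dyskerin (DKC1), which makes pseudouridine in box H/ACA particles (1.73), TCOF1, a cofactor of ribosomal DNA transcription mutated in Treacher Collins syndrome (1.52), the processome protein PWP2 (1.54), the large subunit factor NIP7 (1.91) and the box H/ACA protein GAR1 (1.38). DKC1 had values of 9.92, 10.11 and 10.17 in UWKOS1, UWKOS3 and UWKOS7 and of 8.11, 8.36 and 8.54 in UWKOS2, UWKOS6 and UWKOS8.

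MYC, a transcription factor known to activate genes of this pathway, had 10.80, 11.06 and 11.17 in the tumorigenic lines and 10.03, 9.75 and 9.29 in the non-tumorigenic lines, a rise of 1.32 (limma adjusted p = 0.0251). Of the 7 tested genes of its network, MXD4, which competes with MYC for its partner MAX, fell by 1.31 (limma adjusted p = 0.0237), and the other 5, MAX among them at 0.02, did not pass.

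Genes of cell proliferation were also higher in the tumorigenic lines. In limma 12 of the 23 measured genes rose and 0 fell, and the median difference was 1.38 (20 higher and 0 lower at an unadjusted p under 0.05). The list averaged 10.89 to 11.00 in the tumorigenic lines and 9.01 to 10.12 in the non-tumorigenic lines. Every tumorigenic line was above every non-tumorigenic line for 17 of the 23, against 21.7% of all tested genes. UWKOS8 reached or passed the lowest tumorigenic line for 6 of the 23 proliferation genes, whereas UWKOS2 and UWKOS6 did so for 0. For the ribosome biogenesis genes UWKOS8 did so for 3 of 43, UWKOS2 for 2 and UWKOS6 for 1. The share of all tested genes was not counted for these counts by line, and the 2 lists were not tested against each other. The part of proliferation in the ribosome biogenesis differences was not tested.

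**Figure D5:**
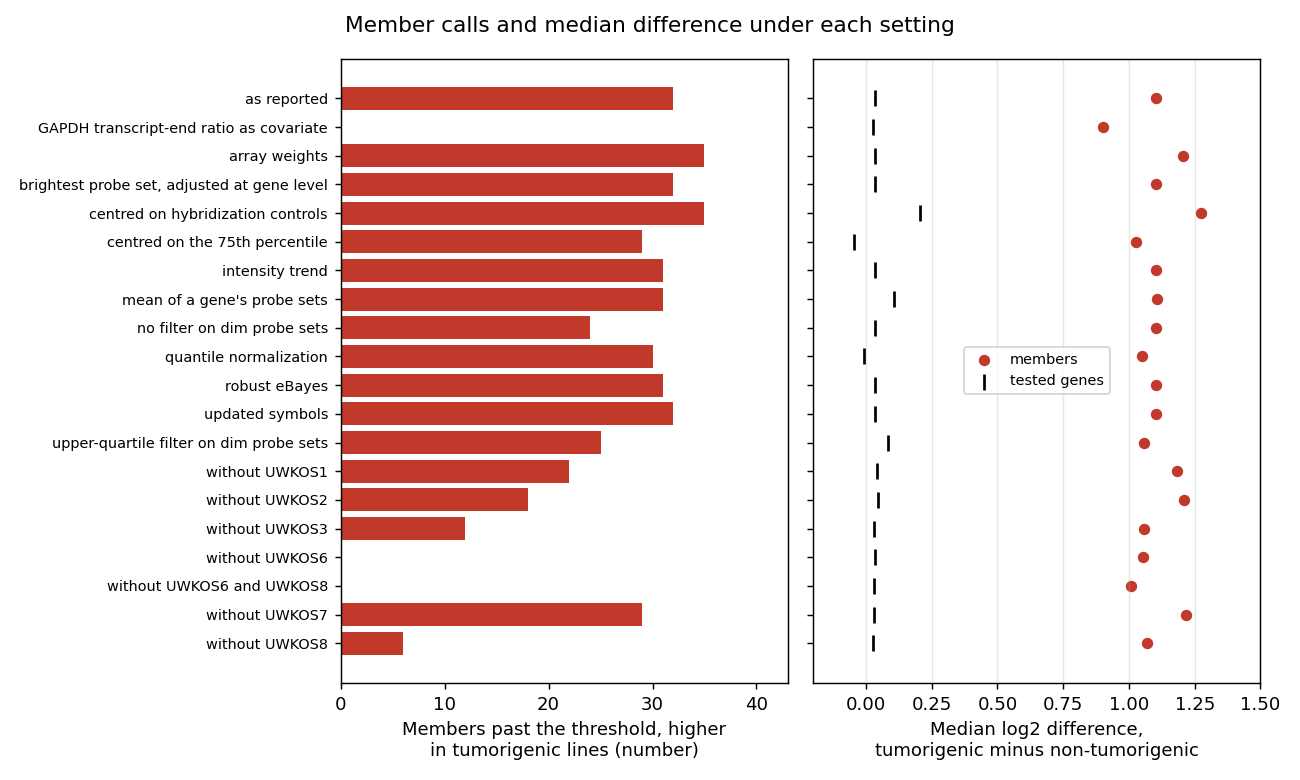
Number of the list's genes past the threshold and higher in the tumorigenic lines (left, bars from 0) and median log2 difference, tumorigenic minus non-tumorigenic, of the list and of all tested genes (right) under each processing setting. The bars reach 32 as reported and 0 without UWKOS6, while the list's median stays between 0.90 and 1.28.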

How the data were processed

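Total RNA was extracted with Trizol and biotin-labelled cRNA was made from 10 µg and hybridised to Affymetrix canine arrays, 1 per line, per the labels' protocols. The only tool named is MAS5, without a version, per the submitters' processing notes. The deposited values are on a log2 scale, which the authors made; the array columns had nearly equal quantiles, so the scaling between arrays, which is not given in the sources used here, could shift all differences together. Values were used as deposited, with 0 columns left out. Arrays have no read depth, and precision is limited by there being 6 of them.

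Of 43035 probe sets, 111 were controls. The platform's annotation, of some age, gave 1 symbol to 29254 of the remaining 42924, several to 439 and none to 13231. Members were matched by that symbol, and symbols updated by gene identifier (RefSeq, UU_Cfam_GSD_1.0, 27680 probe sets) were an alternative. The 21462 probe sets with a mean at or above the median, 6.07, were tested with limma 3.58.1 in R 4.3.3 (lmFit, eBayes, no covariate), with Benjamini-Hochberg adjustment over them and a threshold of 0.05. Intervals are 95% intervals of the fit. Tested on simulated data with the real means and spreads, the fit recovered 0% of changes of 0.5, 8% of changes of 1, 28% of changes of 1.5 and 54% of changes of 2 on the log2 scale (50 of each among 21462 probe sets, 5 unchanged ones called); the simulated noise was not shared between genes. Far fewer probe sets were changed in the simulation than passed in the real data, where 7.28% rose and 4.74% fell. Its adjustment was therefore stricter, and these rates are not the recovery rates of the comparison reported here. Figures were drawn with matplotlib 3.10.9.

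The members, role classes, further gene lists and settings were chosen with earlier results of these data known. The naming rule gave all line values for the box C/D, RNA polymerase I and other nucleolar genes, the 5 of smallest p in each subunit class and genes with probe sets of opposite sign and 1 past the threshold; the values of MYC, and of up to 6 further biogenesis genes by smallest p in each direction, were also given.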

Additional observations from a re-analysis of the deposited data

How the results depend on the processing

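With each line left out in turn, between 0 and 29 of the 43 genes rose and 0 fell in limma, and between 0 and 48 of the other ribosome biogenesis genes rose. The count of 0 came without UWKOS6, where 6 of all 9145 tested genes rose and 11 fell, and 37 of the 43 were still higher at an unadjusted p under 0.05. Without UWKOS6 and UWKOS8 together, a fit that takes the lone UWKOS2 to vary as the other group does, 0 genes of either list passed, 24 of the 43 were higher at an unadjusted p under 0.05 and the median difference was 1.01. The GAPDH end ratio as covariate left 0 genes of either list past the threshold and a median of 0.90, and 1 gene of 9145 rose and 1 fell there. Centring on the hybridization controls put the median of all tested genes at 0.20, against 0.03 as reported, and that of the list at 1.28, and 1101 genes rose and 300 fell, against 668 and 413 as reported; 35 of the 43 rose. Under the other settings (filter, quantile and 75th percentile scaling, trend, robust fit, array weights, symbols and probe set rule) between 24 and 35 of the genes rose and 0 fell. Over 19 settings 42 genes kept an upward difference in every one that tested them, with 0 reversals in 809 pairs of gene and setting; 190 lost and 11 gained the threshold. 0 genes passed in every fit with a line left out. No paired analysis was possible because the replicate numbers only name the lines in accession order, and no label ties a tumorigenic line to a non-tumorigenic one. The cause of these changes was not tested.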

Other observations

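Other parts of the ribosome pathway were grouped by role after their values were seen. Of 6 genes of the box H/ACA particles, which guide pseudouridine formation, 3 rose and 0 fell, with a median difference of 0.96. Of 8 further measured RNA polymerase I subunits and factors 3 rose, with a median of 0.67, and TAF1D differed by -0.33 (limma adjusted p = 0.515). All 12 genes of the RNA exosome, the nuclease complex that trims ribosomal RNA precursors, differed upward, and 5 of them rose, among them EXOSC8 by 1.71 and EXOSC1 by 1.19.

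The genes for the ribosomal proteins themselves, picked by symbol, had a smaller median difference. In limma RPL26 was the only 1 of 50 tested that rose, by 1.21, and 0 fell, with 3 higher and 0 lower at an unadjusted p under 0.05. Every tumorigenic line was above every non-tumorigenic line for 25 of the 50, against 21.7% of all tested genes. The difference was above 0 for 47 of the 51 measured, against 52.6% of all tested genes. The median difference of the 51 measured was 0.23, against 1.10 for the biogenesis genes. Their list means were 13.19 to 13.24 in the tumorigenic lines and 12.89 to 13.06 in the non-tumorigenic lines, near the top of the scale. Whether bright probe sets understate differences was not tested.

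Probe sets annotated to NPM1 together with other loci differed by 0.40, 1.35 and 0.46. The second rose (limma adjusted p = 0.0137) and the first did not pass (limma adjusted p = 0.145). The third lay below the dim-probe limit and was not tested. The groups did not overlap on any of the 3, and the share of all probe sets without overlap was not counted. The first was the brightest, with a mean of 14.09 in the tumorigenic lines and 13.69 in the non-tumorigenic lines.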
